A study of Mus musculus with 17 samples.

Results

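The genes described here are 10 interferon-inducible GTPases of the mouse: 4 guanylate-binding proteins (Gbp2, Gbp3, Gbp5 and Gbp7) and 6 immunity-related GTPases (Igtp, Irgm1, Irgm2, Iigp1, Tgtp1 and Tgtp2). They were taken by symbol from the joint count table, which holds 22859 genes, and no measured value was used to choose them. All 10 are rows of the table and all 10 passed the filter on low counts. The study asked how macrophages of the synovium, the lining of the joint, respond to immune complexes (IC) that arrive through the blood. Macrophages were sorted from the knee synovium of mice labelled as knockouts of Fcgr2b, the inhibitory Fc receptor for immunoglobulin G, so controls carried this deletion too. Per the study's methods the mice were adults of both sexes and IC were made of ovalbumin and rabbit antibody to it. The labels do not say how many animals gave a library. Bulk RNA was sequenced 8 h after injection into a vein, or from mice labelled as controls.

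Groups were LYVE1+CX3CR1+ macrophages (label Lyve1), MHCII+CD11c- macrophages (label IAIE) and MHCII+CD11c+ macrophages (label CD11c), each from control mice (n = 3 libraries) and after IC (n = 3, 3 and 2 libraries). The 17 libraries held between 2301913 and 7248939 counts. Sorting labels were checked against marker genes. Lyve1 mRNA was at 1727 to 2338 CPM in LYVE1+CX3CR1+ control libraries and Itgax, the CD11c gene, was at 275 to 434 CPM in MHCII+CD11c+ control libraries, against at most 16.05 CPM in MHCII+CD11c- ones. Lyve1 mRNA was also present in MHCII+CD11c- controls, at 695 to 1131 CPM. The summed level of 5 macrophage markers was 1254 to 1569 CPM in MHCII+CD11c+ controls and 3245 to 4651 CPM in MHCII+CD11c- ones. All 5 were called lower in the former. For 6 dendritic cell markers the sums were 84.0 to 149 CPM and 37.5 to 122 CPM. CPM denotes read counts scaled for library total with TMM factors. Fewer genes were detected after IC in LYVE1+CX3CR1+ macrophages when every library was drawn down to the smallest total, with 13457, 13874 and 11547 genes against 17431, 16322 and 17348 in their controls. In each MHCII+ group 1 library had more Vsig4 mRNA, a gene of the LYVE1+ macrophages, than the others: control library 2 of MHCII+CD11c- (306 CPM) and of MHCII+CD11c+ (81.2 CPM), and IC library 1 of MHCII+CD11c- (541 CPM) and of MHCII+CD11c+ (99.9 CPM). Calls between subsets that were lost without these 4 libraries are given beside them. Leaving the 4 out leaves 1 library in MHCII+CD11c+ macrophages after IC.

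These GTPases are among the most strongly induced proteins of cells exposed to interferon gamma, and many also respond to type I interferon. Guanylate-binding proteins assemble on the membranes of vacuoles that hold microbes and on bacteria in the cytosol, and they promote inflammasome activation. Among the immunity-related GTPases, Irgm1, Irgm2 and Igtp (also called Irgm3) are regulators that sit on membranes of the cell itself and keep the effectors Iigp1 and Tgtp2 inactive until these load on a vacuole. Genes induced by interferon gamma often carry gamma-activated sites (GAS) in their promoters, and genes induced by type I interferon carry interferon-stimulated response elements (ISRE), which members of the IRF family bind.

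The genes lie in a few clusters (GRCm38, GENCODE M21). On chromosome 3, plus strand, the annotation places Gbp5 at 142493978 to 142522344, Gbp7 at 142530342 to 142550149, Gbp3 at 142560026 to 142573209 and Gbp2 at 142620602 to 142638008. On chromosome 11, Irgm1 (48861968 to 48871683), Tgtp1 (48985327 to 48994172) and Tgtp2 (49057194 to 49064206) are on the minus strand, and Igtp (58199556 to 58207591) and Irgm2 (58199618 to 58222782) on the plus strand. Iigp1 lies on chromosome 18, 60376027 to 60392634, plus strand. All 10 are annotated as protein coding. Igtp and Irgm2 overlap on the same strand and share 162 exon bases, Tgtp1 shares 223 with the predicted gene Gm12185, and Gbp7 shares 637 with the processed pseudogene Gm43802, so reads in those bases could be assigned to either gene or to none. Tgtp1 and Tgtp2 are near-identical copies, and their split of reads is uncertain.

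Promoter windows of 300 bases around RefSeq transcription starts (250 before, 50 from the start on, GRCm38.p6) were at hand for 9 of the 10 genes, with 2 windows for Gbp3. GAS was searched as TTCNNNGAA, which reads the same on both strands, and the ISRE core as GAAA, any 2 bases and GAAA again, on both strands. Matches of the ISRE core may overlap each other. An ISRE core was found in windows of 9 of 9 genes and GAS in 6 of 9 (Gbp5, Gbp7, Igtp, Irgm2, Tgtp1 and Tgtp2). Of all 32851 windows compared, 3.44% held the ISRE core and 8.30% held GAS. In Igtp, Irgm2, Tgtp1 and Tgtp2 the ISRE core began 2 bases after the end of GAS. With GAS first on the strand of the gene, only 5 of the windows compared had this arrangement. The remaining window belongs to Gm12185, which overlaps Tgtp1. Windows with the ISRE core first and GAS after it were not counted. A match is a description of letters and not a bound site.

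The stretches below carry these motifs and show how alike the promoters of the immunity-related GTPases are, beside those of Gbp7 and Gbp3. Each has 60 bases, is written from 5′ to 3′ on the strand of its gene in lower case, and has the GAS and ISRE core matches in capitals. They stand at chr11:58199482-58199541 (Igtp, plus strand), chr11:58214873-58214932 (Irgm2, plus), chr11:48992304-48992363 (Tgtp1, minus), chr11:49064263-49064322 (Tgtp2, minus), chr3:142530243-142530302 (Gbp7, plus) and chr3:142559965-142560024 (Gbp3, plus). Stretches of Gbp2, Gbp5 and Irgm1 are not shown because they reach into exons of GENCODE M21.
Igtp: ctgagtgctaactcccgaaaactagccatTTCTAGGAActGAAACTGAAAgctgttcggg
Irgm2: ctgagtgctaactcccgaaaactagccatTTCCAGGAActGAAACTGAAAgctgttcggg
Tgtp1: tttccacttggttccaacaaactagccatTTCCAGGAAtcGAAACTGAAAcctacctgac
Tgtp2: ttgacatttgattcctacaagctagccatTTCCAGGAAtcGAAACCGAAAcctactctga
Gbp7: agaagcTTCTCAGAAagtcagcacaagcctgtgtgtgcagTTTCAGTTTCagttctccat
Gbp3: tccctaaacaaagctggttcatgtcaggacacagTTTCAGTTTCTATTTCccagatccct
Igtp and Irgm2 were identical at 59 of 60 bases, and Tgtp1 and Tgtp2 at 48 of 60. In Tgtp2 GAS began 81 bases before the start, in Igtp 45, in Irgm2 75 and in Tgtp1 88. Gbp3 and Irgm1 each had 2 overlapping ISRE cores, and Gbp2 had 1 that began 59 bases before the start.

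**Figure D1:**
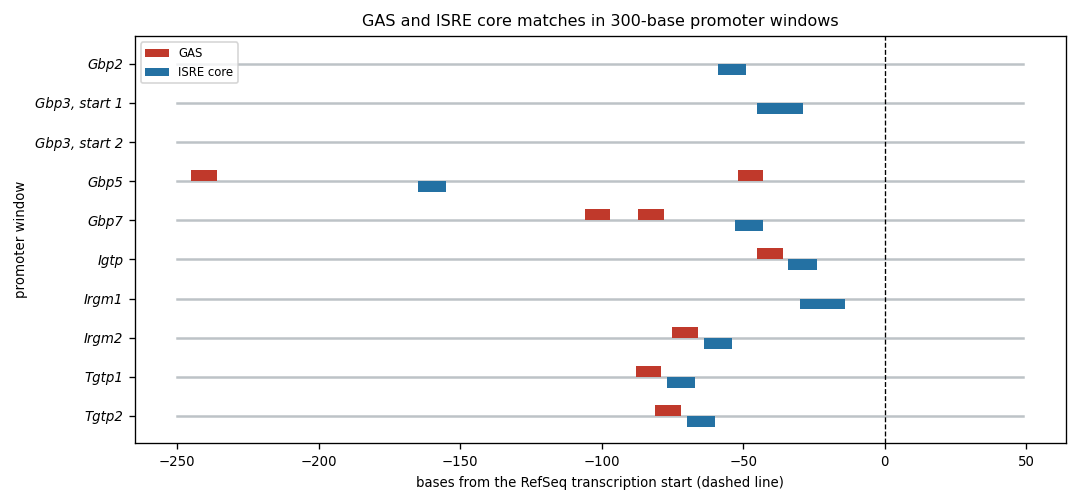
Position of GAS (red) and ISRE core (blue) matches in the promoter windows, in bases from the RefSeq transcription start, with 1 row per window and the second start of Gbp3 on its own row. ISRE core matches lie in windows of all 9 genes, and in Igtp, Irgm2, Tgtp1 and Tgtp2 a GAS match stands just before the ISRE core.

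Levels per length show which members made up most of this RNA. Per kilobase of exon, Gbp3 and Gbp2 were the most abundant members in LYVE1+CX3CR1+ controls, at mean levels of 15.7 and 15.2 CPM per kilobase. Gbp2 had the highest mean in MHCII+CD11c- macrophages after IC, at 58.4. That mean came from 128, 31.0 and 15.7 in IC libraries 1, 2 and 3, and in library 3 Igtp (34.0) was above Gbp2. Tgtp1 was the lowest in every group, with at most 1.18 CPM per kilobase. Tgtp2, the other copy, stood at 22.6 CPM per kilobase in MHCII+CD11c- macrophages after IC and at 0.132 in LYVE1+CX3CR1+ macrophages after IC. Across groups the mean level of 8 of the 10 genes was highest in an MHCII+CD11c- group, that of Gbp3 and Gbp5 in MHCII+CD11c+ macrophages after IC, and the lowest group mean belonged to LYVE1+CX3CR1+ macrophages for 8 genes and to MHCII+CD11c+ controls for Igtp and Irgm2.

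Tgtp2, an effector GTPase first described in T cells, was the single member called changed by IC in any of the subsets. In LYVE1+CX3CR1+ macrophages its level was 8.505, 6.22 and 5.86 CPM in controls and 1.17, 0 and 0 CPM after IC, from 54, 23 and 42 counts against 4, 0 and 0. In MHCII+CD11c- macrophages it was 44.8, 39.4 and 28.1 CPM in controls and 49.4, 77.9 and 72.1 CPM after IC. In MHCII+CD11c+ macrophages it was 15.7, 16.7 and 25.3 CPM in controls and 34.4 and 36.8 CPM after IC. IC and control libraries did not overlap in any subset, and the order was opposite: after IC all libraries were below controls in LYVE1+CX3CR1+ macrophages and above controls in both MHCII+ subsets. Of all genes, 16.7% lay below controls without overlap in LYVE1+CX3CR1+ macrophages, 8.72% above in the MHCII+CD11c- subset and 14.1% above in the MHCII+CD11c+ one. Scaled pooled counts of LYVE1+CX3CR1+ macrophages were 15.5 times higher in controls than after IC, with an exact 95% interval of 5.92 to 58.0 that covers counting error only. In bulk libraries, fewer cells with Tgtp2 mRNA and less of it per cell cannot be told apart. The fitted log2 fold change was -3.89 ± 0.63 (SE; edgeR quasi-likelihood test, Benjamini-Hochberg adjusted p = 0.00241), and the size of this estimate depends on how counts of 0 are handled. Of all genes tested in this contrast, 0.812% were called lower, and 1 of the 10 members was.

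With 2 of the 3 LYVE1+CX3CR1+ libraries at 0 after IC, the limit of detection matters for Tgtp2. A count of 3, taken as the floor, corresponded to between 0.878 and 1.24 CPM in these libraries, below all 3 control values. Among 9293 tested genes with at least as many pooled control counts (119) in LYVE1+CX3CR1+ macrophages, 16 (0.172%) had at most 4 pooled counts after IC, and 10 of these 16 were called. Tgtp2 stayed called without any 1 library, with adjusted p between 0.000769 and 0.0165. It was not called with precision weights (adjusted p = 0.137), with the number of detected genes as a covariate (0.0821), or when only the LYVE1+CX3CR1+ libraries were fitted (0.279). Other genes were also low in these libraries. H2-Eb1, an MHC class II gene called lower after IC (edgeR adjusted p = 5.85e-06), was at 3.78, 4.59 and 7.54 CPM in controls and at 0 in all 3 libraries after IC. The summed level of 5 MHC class II side markers was 103.5 to 157 CPM in controls and 21.7 to 49.2 after IC, with H2-Eb1 the 1 gene at 0 in all of the latter. The summed level of 6 dendritic cell markers was 30.5 to 38.4 CPM and 8.498 to 14.9. Of the 5 that were tested, Siglech was the 1 called lower after IC. The part of these markers in the change of Tgtp2 was not tested. In controls, the level in LYVE1+CX3CR1+ macrophages was 0.246% of that in MHCII+CD11c- macrophages for H2-Eb1 and 18.3% for Tgtp2. The part of MHCII+ cells in these levels was not tested.

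Responses of Tgtp2 to IC differed between subsets in tests of the difference itself. The log2 response of LYVE1+CX3CR1+ macrophages minus that of MHCII+CD11c- macrophages was -4.72 ± 0.74 (SE; edgeR, adjusted p = 0.0116) and minus that of MHCII+CD11c+ macrophages it was -4.79 ± 0.76 (adjusted p = 0.00738). In each of these contrasts 0.0196% of all genes tested were called lower, and Tgtp2 was the 1 member called. H2-Eb1 was another of the 3 genes called lower in each (adjusted p = 0.000367 and 3.47e-05), and its part in the difference of Tgtp2 was not tested. Summing Tgtp1 and Tgtp2 ended both calls (adjusted p = 0.0869 and 0.0594), as did precision weights (0.445 and 0.128) and the number of detected genes as a covariate (0.0617 and 0.248). The first call was also lost without control library 3 of MHCII+CD11c- macrophages (adjusted p = 0.0706) and without their IC library 2 (0.0723), and the second when only the groups compared were fitted (0.106). Without the 4 libraries of highest Vsig4 the differences were -4.95 ± 0.88 and -4.77 ± 0.94 (SE), with 1 MHCII+CD11c+ library left after IC. Between both MHCII+ subsets the responses of Tgtp2 differed by 0.07 ± 0.56 on the log2 scale, with a 95% interval of -1.09 to 1.24. That contrast called no member and 0% of all genes. No member had an unadjusted p under 0.05 in it, against 496 of all 15272 genes tested. DESeq2 and precision weights called no member either. Both called differences use the same LYVE1+CX3CR1+ libraries.

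Tgtp1, the copy of Tgtp2 on the same chromosome, had at most 21 counts in any library. Its level lay between 0 and 1.17 CPM in LYVE1+CX3CR1+ libraries, between 1.49 and 7.02 CPM in MHCII+CD11c- libraries and between 0.756 and 2.02 CPM in MHCII+CD11c+ libraries. It passed the test in no contrast, and its share of the counts of both copies was 2.83% to 20% in the MHCII+ libraries. Summed counts of both copies in LYVE1+CX3CR1+ macrophages were 56, 24 and 47 in controls and 8, 0 and 0 after IC. The pooled summed level was 8.30 times higher in controls (exact 95% interval 4.09 to 19.6, counting error only), and the sum was called lower after IC (log2 fold change -3.04, adjusted p = 0.0167).

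Igtp and Irgm1, regulators of the immunity-related GTPases, had higher mean values after IC in MHCII+ macrophages, and the differences did not pass the test. In MHCII+CD11c- macrophages Igtp was at 32.2, 43.1 and 34.1 CPM in controls and at 79.2, 59.1 and 68.8 CPM after IC. MHCII+CD11c+ controls had 11.9, 23.6 and 11.3 CPM and MHCII+CD11c+ libraries after IC 23.9 and 20.2 CPM. Values in LYVE1+CX3CR1+ macrophages were 17.2, 15.9 and 19.7 CPM in controls and 25.2, 17.6 and 5.39 CPM after IC. Only in MHCII+CD11c- macrophages were all IC libraries above all controls, with a log2 fold change of 0.92 ± 0.38 (SE; 95% interval 0.13 to 1.70; edgeR adjusted p = 0.381). Of all genes, 8.72% had all IC libraries above all controls in that subset. Whether Igtp differed in its response between subsets did not pass the test either (LYVE1+CX3CR1+ minus MHCII+CD11c-, -1.03 ± 0.55, edgeR adjusted p = 0.708).

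Irgm1, which regulates autophagy and the placement of other members, varied little between LYVE1+CX3CR1+ controls. It stood there at 39.7, 39.5 and 38.8 CPM and at 58.8, 43.7 and 42.3 CPM after IC. Control libraries of MHCII+CD11c- macrophages held 93.6, 49.3 and 70.2 CPM, and those after IC 98.0, 98.9 and 111 CPM. For MHCII+CD11c+ macrophages the levels were 35.7, 41.8 and 47.7 CPM in controls and 69.9 and 62.1 CPM after IC. All IC libraries exceeded all controls in each of the 3 subsets. Of all genes, 4.95% had this pattern in LYVE1+CX3CR1+ macrophages, 8.72% had it in the MHCII+CD11c- subset and 14.1% in the MHCII+CD11c+ one. Averaged over subsets the log2 fold change was 0.50 ± 0.14 (95% interval 0.21 to 0.79), with an edgeR adjusted p of 0.0510 that misses the threshold, and it passed with DESeq2 (adjusted p = 0.0303) but not without the 4 libraries of highest Vsig4 (0.290). No member was called in this average, against 3.35% of all genes. An unadjusted p under 0.05 was found for 3 of 10 members (Gbp7, Irgm1 and Tgtp2), beside 2706 of all 15272 genes tested.

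Irgm2, a further regulator, was not called after IC in any subset. Its values in LYVE1+CX3CR1+ macrophages were 29.3, 21.9 and 34.0 CPM in controls and 45.3, 11.96 and 34.0 CPM after IC. In MHCII+CD11c- macrophages they were 47.1, 52.5 and 52.8 CPM and 71.4, 46.4 and 38.8 CPM. In MHCII+CD11c+ macrophages they were 8.93, 32.1 and 7.94 CPM and 29.2 and 13.4 CPM. IC and control libraries overlapped in all 3 subsets, and the log2 fold changes of 0.09 ± 0.49, 0.04 ± 0.48 and 0.36 ± 0.54 (SE) were smaller than their errors.

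Iigp1, an effector that disrupts the vacuole of parasites, varied widely between libraries of the same group. In MHCII+CD11c+ macrophages it was at 4.68, 66.7 and 12.5 CPM in controls and at 41.1 and 7.15 CPM after IC. MHCII+CD11c- controls had 46.5, 103 and 39.1 CPM and MHCII+CD11c- libraries after IC 114, 84.9 and 76.8 CPM. Values in LYVE1+CX3CR1+ macrophages were 14.02, 10 and 13.8 CPM in controls and 17.0, 10.4 and 1.66 CPM after IC. The highest value of each MHCII+ group belonged to the library of highest Vsig4. Mean Iigp1 in LYVE1+CX3CR1+ controls was 12.6 CPM, below the 66.7 and 103 CPM of the MHCII+ control libraries with high Vsig4, and the part of LYVE1+ cells in this spread was not tested. The 95% interval of the log2 fold change after IC ran from -2.41 to 1.96 in MHCII+CD11c+ macrophages and from -1.37 to 2.45 in MHCII+CD11c- macrophages. Changes of several fold in either direction lie inside both intervals. Without the 4 libraries of highest Vsig4 the log2 fold changes were -0.21 ± 0.76 and 0.92 ± 0.57 (SE).

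Gbp2, a guanylate-binding protein with a lipid anchor, had the same pattern among libraries. Control libraries of MHCII+CD11c- macrophages held 54.2, 138 and 49.1 CPM, and those after IC 323, 78.1 and 39.6 CPM. For MHCII+CD11c+ macrophages the levels were 69.8, 144 and 79.8 CPM in controls and 173 and 94.0 CPM after IC. In LYVE1+CX3CR1+ macrophages it was at 35.9, 47.0 and 31.5 CPM in controls and at 44.2, 21.7 and 48.5 CPM after IC. In all 4 MHCII+ groups the library of highest Vsig4 was the highest for Gbp2. LYVE1+CX3CR1+ libraries, at 21.7 to 48.5 CPM, lay below each of those 4, and the part of LYVE1+ cells in this spread was not tested. The log2 fold change after IC in MHCII+CD11c- macrophages was 0.86 ± 0.69 (SE), it was 0.19 ± 0.37 without the 4 libraries, and it turned to -0.45 without IC library 1.

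Gbp3 and Gbp5, the latter known for its role in inflammasome assembly, were lower in LYVE1+CX3CR1+ macrophages than in the MHCII+CD11c+ subset, and neither was called after IC. Gbp3 was at 64.1, 43.5 and 46.6 CPM in LYVE1+CX3CR1+ controls and at 54.4, 43.1 and 57.2 CPM after IC. It was at 107, 121 and 95.3 CPM in MHCII+CD11c- controls and at 164, 97.4 and 48.98 CPM after IC. MHCII+CD11c+ controls had 142, 73.2 and 144 CPM and MHCII+CD11c+ libraries after IC 119 and 122 CPM. Libraries of LYVE1+CX3CR1+ macrophages were below all MHCII+CD11c+ ones, in controls and after IC, as were those of 16.9% and 27.8% of all genes. The log2 fold changes of Gbp3 after IC were close to 0 in each subset (0.00 ± 0.32, -0.06 ± 0.32 and 0.02 ± 0.35).

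Gbp5 was at 10.1, 11.6 and 7.81 CPM in LYVE1+CX3CR1+ controls and at 14.9, 13.8 and 14.52 CPM after IC. It was at 29.9, 28.8 and 21.1 CPM in MHCII+CD11c- controls and at 41.7, 29.0 and 20.4 CPM after IC. Values in MHCII+CD11c+ macrophages were 19.6, 30.3 and 34.0 CPM in controls and 34.8 and 32.8 CPM after IC. All IC libraries of LYVE1+CX3CR1+ macrophages were above all controls (log2 fold change 0.56 ± 0.35, edgeR adjusted p = 0.521), as were those of 4.95% of all genes. In both MHCII+ subsets IC and control libraries overlapped.

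Gbp7, a further guanylate-binding protein, was highest in MHCII+CD11c- macrophages. Control libraries of LYVE1+CX3CR1+ macrophages held 56.5, 63.5 and 57.2 CPM, and those after IC 46.5, 45.0 and 40.7 CPM. For MHCII+CD11c- macrophages the levels were 126, 115 and 113 CPM in controls and 92.7, 98.7 and 129.6 CPM after IC. In MHCII+CD11c+ macrophages it was at 65.7, 59.6 and 67.7 CPM in controls and at 50.7 and 46.7 CPM after IC. After IC all libraries were below all controls in LYVE1+CX3CR1+ macrophages (log2 fold change -0.42 ± 0.19, edgeR adjusted p = 0.327) and in MHCII+CD11c+ ones (-0.40 ± 0.22, adjusted p = 1), and neither passed the test. Of all genes, 16.7% had all IC libraries below all controls in the former subset and 9.02% in the latter.

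**Figure D2:**
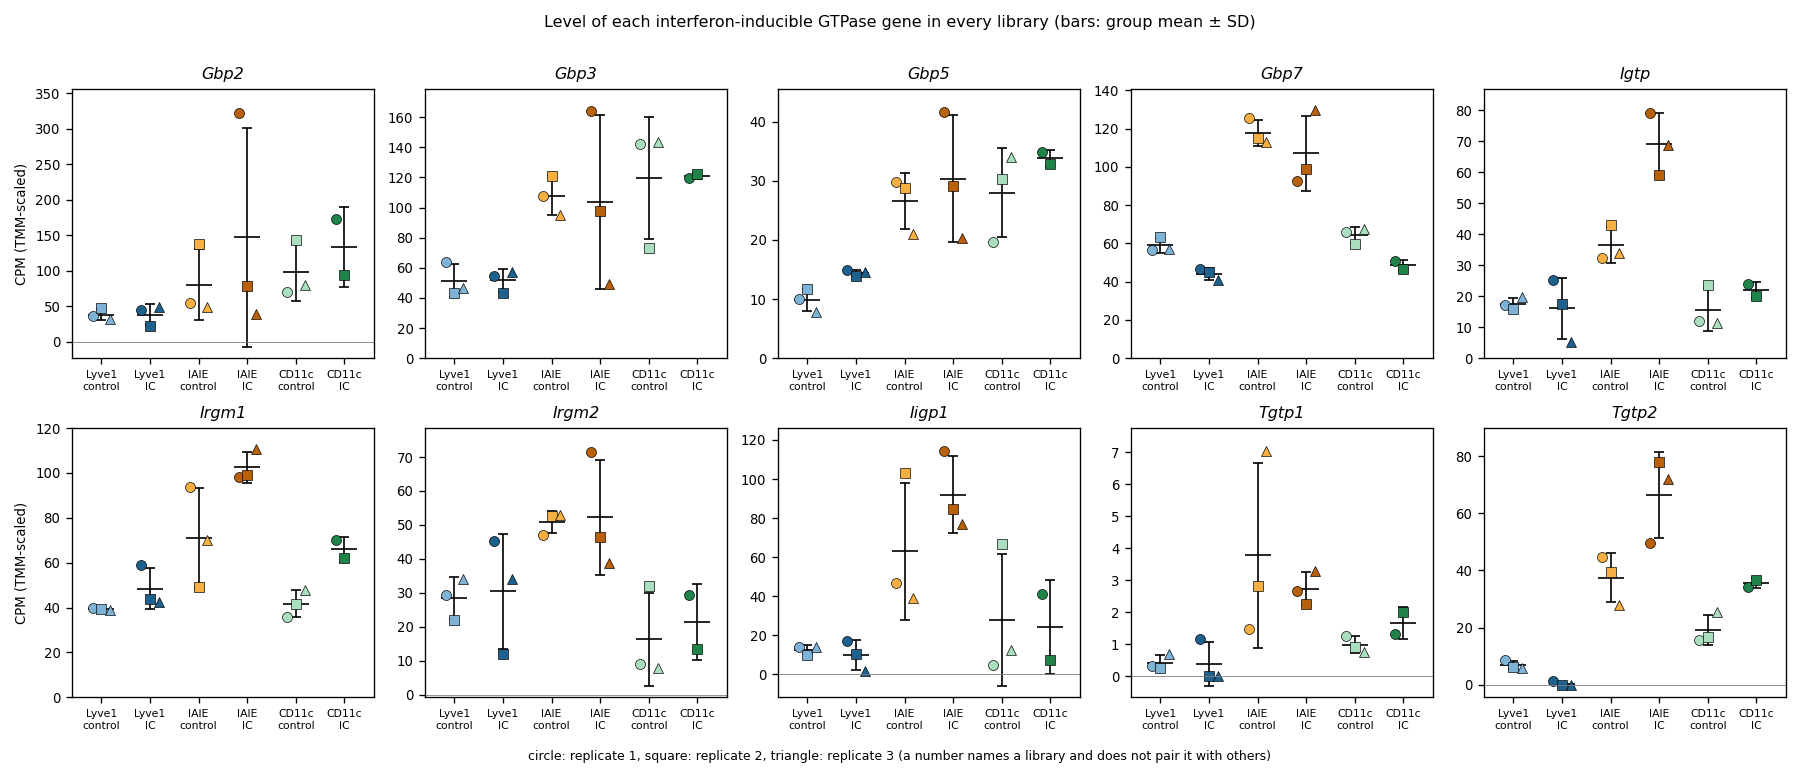
CPM (TMM-scaled) of each gene in every library, with 1 panel per gene on its own linear scale, a symbol for each replicate number, and the group mean ± SD in black. Tgtp2 is at or near 0 in the 3 LYVE1+CX3CR1+ libraries after IC, and Gbp2 and Iigp1 each have 1 library far above the rest in several MHCII+ groups.

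Counting members over the responses to IC, 1 of 10 was called lower in LYVE1+CX3CR1+ macrophages and none was called higher. In that contrast 0.963% of all genes were called in either direction. In MHCII+CD11c- macrophages edgeR called 0 of 10 members, against 0.701% of all genes. There 3 members had an unadjusted p under 0.05, as did 1526 of all 15272 genes tested. In MHCII+CD11c+ macrophages edgeR called 0 of 10, against 0.216% of all genes. In that subset 2 members had an unadjusted p under 0.05, as did 795 of all genes tested. DESeq2 and precision weights also called 0 members in these 2 contrasts. The median log2 fold change of the members was 0.36 in MHCII+CD11c- macrophages and 0.40 in the MHCII+CD11c+ subset, beside -0.03 and 0.01 over all genes tested. In LYVE1+CX3CR1+ macrophages it was -0.04, beside -0.14. The summed level of 5 neutrophil markers moved with IC in the opposite sense, from 61.5 to 229 CPM in MHCII+CD11c+ controls to 0.550 to 1.76 CPM after IC and from 13.04 to 135 CPM to 1.11 to 16.7 CPM in MHCII+CD11c- macrophages. The summed level of 5 LYVE1 side markers was 988 to 1721 CPM in MHCII+CD11c- controls and 1817 to 3293 CPM after IC, and that of 5 macrophage markers was 1254 to 1569 CPM in MHCII+CD11c+ controls and 2065 to 2217 CPM after IC. No marker of a list was called after IC in the subset given for that list. In the average over subsets S100a8 was called lower, and Timd4, Cd68 and Fcgr1 were called higher. The part of these markers in the members' values was not tested.

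**Figure D3:**
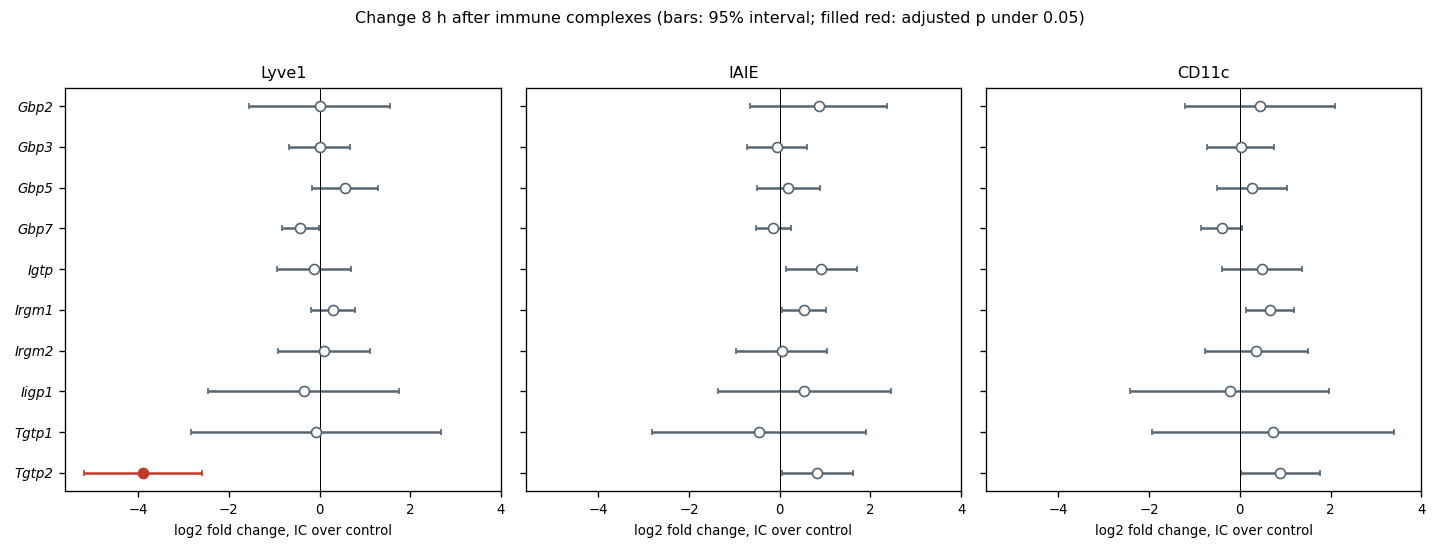
Log2 fold change of each gene 8 h after IC over control in the 3 subsets, with 95% intervals; a filled red point has an adjusted p under 0.05. Tgtp2 in LYVE1+CX3CR1+ macrophages (-3.89) is the single filled point, and intervals of Gbp2, Iigp1 and Tgtp1 are the widest.

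More members passed the test between subsets than after IC. In control mice all 10 members were lower in every LYVE1+CX3CR1+ library than in every MHCII+CD11c- library, a pattern that 10.3% of all genes tested had. The median log2 difference was -1.08 over the members and -0.00 over all genes. The test called 3 of 10 lower, against 1.22% of all genes: Tgtp2 (-2.44 ± 0.41, edgeR adjusted p = 0.00156), Gbp7 (-0.998 ± 0.19, adjusted p = 0.00621) and Gbp5 (-1.44 ± 0.35, adjusted p = 0.0320). Gbp5 was not called without the 4 libraries of highest Vsig4 (adjusted p = 0.117) or without any 1 of the LYVE1+CX3CR1+ control libraries (0.0781 to 0.199), and the other 2 were called without those 4. Without control library 1 of LYVE1+CX3CR1+ macrophages Gbp7 was not called either (0.0511), which left 1 member.

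After IC the test called 4 of 10 members lower in LYVE1+CX3CR1+ macrophages than in the MHCII+CD11c- subset, against 4.79% of all genes. They were Gbp7 (-1.28 ± 0.20, edgeR adjusted p = 0.000288), Igtp (-2.08 ± 0.40, adjusted p = 0.00254), Irgm1 (-1.08 ± 0.24, adjusted p = 0.00691) and Tgtp2. Scaled pooled Tgtp2 counts of MHCII+CD11c- macrophages were 149 times those of LYVE1+CX3CR1+ macrophages after IC. The exact 95% interval was 58.1 to 549.5, for counting error. Igtp was not called with the number of detected genes as a covariate (adjusted p = 0.185), nor Irgm1 with precision weights (0.0542). All 4 stayed called without the 4 libraries of highest Vsig4. Libraries of 7 members lay below without overlap, as did those of 15.7% of all genes, and Gbp2, Gbp3 and Irgm2 overlapped. The median log2 difference of the members was -1.61, beside -0.14 over all genes.

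LYVE1+CX3CR1+ and MHCII+CD11c+ macrophages differed in Gbp3, Gbp5 and Tgtp2. In control mice Gbp3 (-1.21 ± 0.32, edgeR adjusted p = 0.0119), Gbp5 (-1.51 ± 0.35, adjusted p = 0.00367) and Tgtp2 (-1.47 ± 0.40, adjusted p = 0.0133) were called lower in LYVE1+CX3CR1+ macrophages, 3 of 10 against 7.4% of all genes. After IC the same 3 genes were called, against 8.42% of all genes. Gbp3 stood at -1.23 ± 0.35 (edgeR adjusted p = 0.0263) and Gbp5 at -1.23 ± 0.38 (adjusted p = 0.0352). Scaled pooled Tgtp2 counts were 79.8 times higher in MHCII+CD11c+ macrophages (exact 95% interval 30.9 to 294). With the replicate number as a block nested in treatment, Gbp3 (adjusted p = 0.0741) and Gbp5 (0.108) were not called after IC. Gbp5 was not called after IC without the 4 libraries of highest Vsig4 (adjusted p = 0.241). Leaving out 1 of several libraries reduced either count to 1: control libraries 2 or 3 of LYVE1+CX3CR1+ or 3 of MHCII+CD11c+ macrophages in controls, and any of the 5 libraries compared after IC. Igtp, Irgm1 and Irgm2, the regulators, were not called on either side, with control differences of 0.16 ± 0.39, -0.08 ± 0.24 and 0.77 ± 0.49.

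Within MHCII+ macrophages, the members called were lower where CD11c was present. So were macrophage markers, of which 5 of 5 were called lower in controls and 3 of 5 after IC. Of 5 dendritic cell markers tested, 1 was called lower in controls, and after IC 3 were called higher and 1 lower. The summed level of the 6 listed was 156 to 202 CPM in MHCII+CD11c+ macrophages after IC. It was 30.4 to 52.7 CPM in MHCII+CD11c- ones after IC. The part of both marker lists in the members' differences was not tested. In control mice 3 of 10 were called lower in MHCII+CD11c+ macrophages than in the MHCII+CD11c- subset, against 4.99% of all genes: Gbp7 (-0.87 ± 0.19, edgeR adjusted p = 0.00430), Irgm1 (-0.77 ± 0.24, adjusted p = 0.0431) and Irgm2 (-1.61 ± 0.50, adjusted p = 0.0491). The calls of Irgm1 and Irgm2 were lost under many alternatives, among them the replicate number as a block (adjusted p = 0.0529 and 0.0793) and leaving out control library 1 or 3 of either MHCII+ subset, and that of Gbp7 without the 4 libraries of highest Vsig4 (adjusted p = 0.0527). After IC 2 of 10 were called lower, against 1.75% of all genes: Gbp7 (-1.13 ± 0.22, adjusted p = 0.00268) and Igtp (-1.64 ± 0.45, adjusted p = 0.0340). Igtp was lost without the 4 libraries of highest Vsig4 (adjusted p = 0.240), a setting that leaves 1 library in MHCII+CD11c+ macrophages after IC, and no member was called without either of the MHCII+CD11c+ libraries after IC. Gbp2, Gbp3 and Gbp5 had values that overlapped between these subsets at both times, and their 95% intervals in controls were -1.23 to 1.78, -0.51 to 0.80 and -0.63 to 0.77 on the log2 scale.

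**Figure D4:**
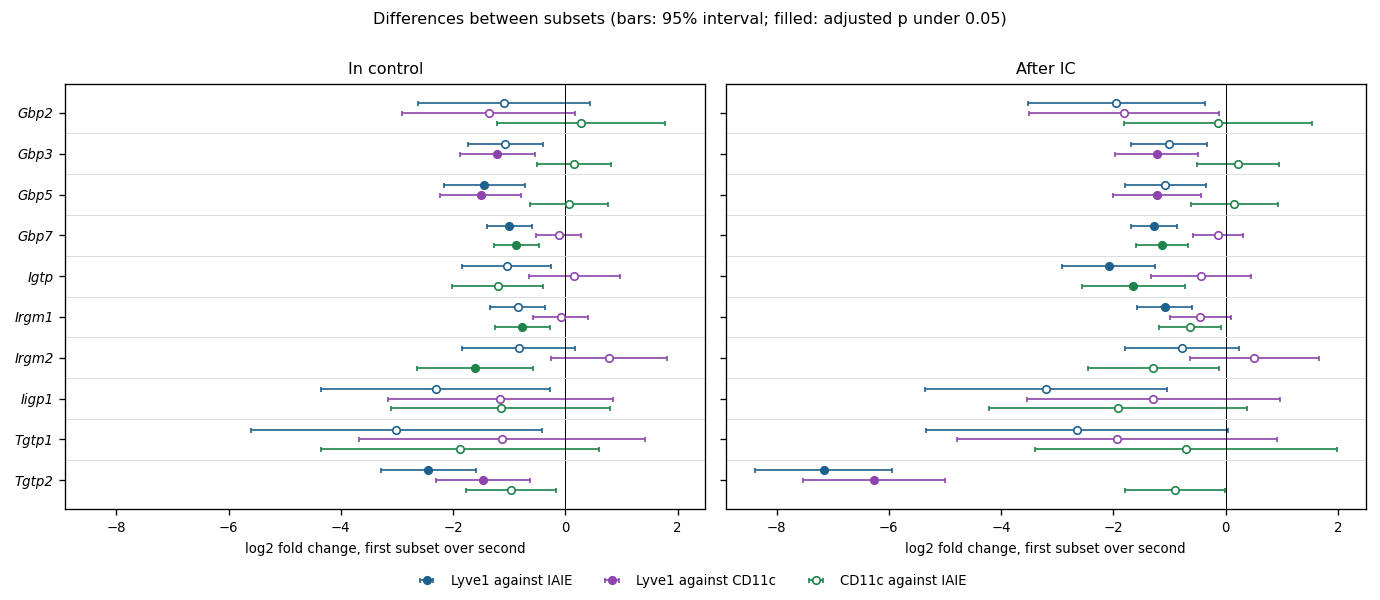
Log2 differences between pairs of subsets for each gene in control mice and after IC, with 95% intervals; filled points have an adjusted p under 0.05. All filled points lie below 0, and those of Tgtp2 after IC (below -6) are the farthest from it.

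Spread between libraries of a group was shared by some members. With group means subtracted, the log2 CPM of Igtp and Iigp1 had a Pearson correlation of 0.84 over 17 libraries and that of Gbp2 and Gbp5 of 0.72, while Gbp2 and Gbp7 had -0.59. Of the 45 pairs, 31 were above 0, with a median of 0.14, and 44 were above 0 (median 0.57) when group means were kept. All pairs share the same 17 libraries with their depth and preparation, so the values are descriptions. Genes outside the family with the pattern most like its mean over 17 libraries were Nlrc5, a regulator of MHC class I genes (r = 0.91), the nucleic acid sensor Zbp1 (0.90), Hk3 (0.89), Ccl8 (0.86) and Clec2d (0.86). With group means subtracted they were Wdr61 (0.94), Zfp11 (0.94), Cacna1c (0.90), Rab4a (0.89) and Mfsd7a (0.88), none of them among the former.

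**Figure D5:**
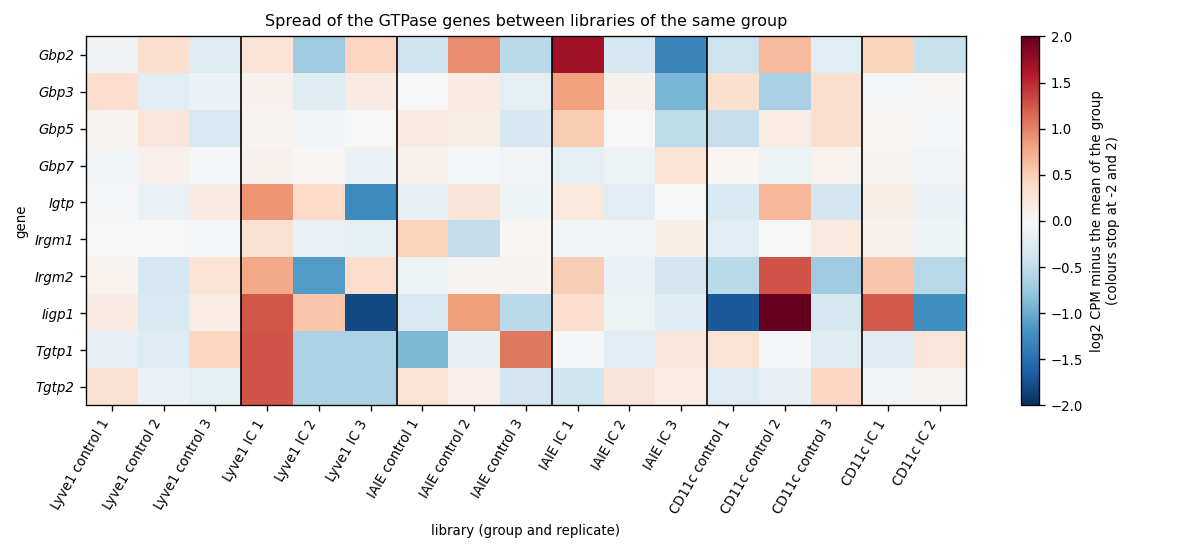
Log2 CPM (prior count 2) of each gene minus the mean of its group, by library, with colours that stop at -2 and 2. Gbp2 and Iigp1 are high in control library 2 and IC library 1 of both MHCII+ subsets, and the rows of Gbp7 and Irgm1 are pale.

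Of 12 further interferon-induced GTPases listed, Gbp11 is not a row of the table and 10 of the other 11 were tested. None was called after IC in a subset or in the average. In the average 3 of 10 had an unadjusted p under 0.05, beside 2706 of all 15272 genes tested. In LYVE1+CX3CR1+ macrophages all 10 had a log2 fold change after IC below 0 (median -0.58, beside -0.14 over all genes), and in each MHCII+ subset 7 of 10 were above 0. Between subsets, in LYVE1+CX3CR1+ macrophages 6 of 10 were called lower than in MHCII+CD11c- ones both in controls (Gbp2b, Gbp4, Gbp8, Ifi47, Mx1 and Mx2) and after IC (Gbp2b, Gbp4, Gbp9, Ifi47, Mx1 and Mx2). Over all genes, 1.22% were called lower in this comparison in controls and 4.79% after IC. Gbp4 was at 0 counts in all 3 LYVE1+CX3CR1+ libraries after IC, which puts it at least 11.8-fold lower than in MHCII+CD11c- macrophages, against a floor of 3 counts per library. Ifi47, an immunity-related GTPase, was at 36.5, 36.2 and 26.1 CPM in MHCII+CD11c- controls and at 60.3, 55.6 and 32.2 CPM after IC, and it was at 9.45, 8.65 and 8.23 CPM and 1.46, 12.3 and 4.98 CPM in LYVE1+CX3CR1+ macrophages.

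Upstream, the gene of interferon gamma itself is not a row of the table, in which no gene has a total below 3 counts. Of the other 8 genes listed for its pathway, edgeR called none after IC in any subset. In MHCII+CD11c- macrophages 1 had an unadjusted p under 0.05, beside 1526 of all 15272 genes tested, and in the other subsets 0 had. The receptor chains Ifngr1 and Ifngr2 were present in all groups, with Ifngr1 at 199, 190.0 and 213 CPM in LYVE1+CX3CR1+ controls and 188, 189 and 183 CPM in MHCII+CD11c- controls, and Ifngr2 at 74.7, 83.0 and 80.8 and 54.4, 64.5 and 61.5 CPM. In controls LYVE1+CX3CR1+ libraries stood above MHCII+CD11c- ones for both receptor genes, as for 11.3% of all genes. For Ifngr1 the nearest values were 190.0 and 189 CPM. After IC the libraries overlapped for Ifngr2, and neither receptor gene was called in this comparison. Irf1 was lower in LYVE1+CX3CR1+ controls than in those of MHCII+CD11c- macrophages (-0.92 ± 0.22, edgeR adjusted p = 0.0277) and than in MHCII+CD11c+ controls (-0.73 ± 0.22, adjusted p = 0.0236). Of 8 listed markers of T and NK cells, the usual sources of interferon gamma, 3 are rows of the table. Their summed level was at most 5.77 CPM in any library. Because the libraries are of sorted macrophages, these values cannot show whether such cells or interferon gamma were present in the tissue.

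On the type I side, Irf7 was the 1 gene of 8 called after IC. It rose in MHCII+CD11c+ macrophages from 23.6, 17.3 and 44.6 CPM to 166 and 102 CPM (2.26 ± 0.40, edgeR adjusted p = 0.0244) and in the average over subsets (1.25 ± 0.21, adjusted p = 0.00274). In MHCII+CD11c- macrophages it was at 137, 59.4 and 117 CPM and 190.2, 262 and 407 CPM (1.46 ± 0.35, adjusted p = 0.0752), and in LYVE1+CX3CR1+ macrophages at 52.4, 39.7 and 49.8 CPM and 55.6, 39.3 and 52.3 CPM. Called genes made up 0.216% of all genes in MHCII+CD11c+ macrophages, with 2 libraries after IC, and 3.35% in the average. In that subset 0 of 10 members were called, and 8 had a log2 fold change above 0. A relation between Irf7 and the members was not tested.

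Among 11 further targets of interferon gamma, 9 were tested. Ciita, the master regulator of MHC class II genes, fell in MHCII+CD11c- macrophages from 214, 165 and 242 CPM to 65.0, 84.1 and 42.4 CPM (-1.69 ± 0.35, edgeR adjusted p = 0.0316), the 1 call in a single subset. In the average over subsets Acod1, the itaconate enzyme (2.62 ± 0.55, adjusted p = 0.0178), and Cd274, encoding PD-L1 (1.31 ± 0.24, adjusted p = 0.00267), rose and Ciita fell (-1.18 ± 0.30, adjusted p = 0.0400). Called genes made up 0.701% of all genes in MHCII+CD11c- macrophages after IC and 3.35% in the average. Of 11 genes for vacuole and inflammasome partners, such as Atg5 and Casp4, all were tested and none was called after IC. An unadjusted p under 0.05 was found for 2 of them in LYVE1+CX3CR1+ macrophages, 1 in the MHCII+CD11c- subset and 2 in the MHCII+CD11c+ one. Over all 15272 genes tested, 2159, 1526 and 795 had such a p. The targets also had lower values in LYVE1+CX3CR1+ macrophages: 9 of 9 had a log2 difference below 0 between LYVE1+CX3CR1+ and MHCII+CD11c- macrophages both in controls and after IC. Of these 9, 3 were called lower in controls (Cd274, Ciita and Tap1), against 1.22% of all genes. After IC 6 were called lower (Cd274, Ciita, Cxcl10, Nlrc5, Psmb8 and Tap1), against 4.79% of all genes. The subsets were sorted by MHC class II, so a difference of Ciita, its regulator, was set at least in part by the sort. Partners had 7 of 11 above 0 in controls with none called, and 4 of 11 above 0 after IC with Rnf213, a large ubiquitin ligase, called lower (-1.87 ± 0.24, edgeR adjusted p = 4.60e-05).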

How the data were processed

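Libraries were made by the authors from total RNA with a low-input stranded kit. Per the study's methods and the submitters' processing notes, reads were trimmed with Trim Galore, checked with FastQC, aligned to mm10 with HISAT2 and counted with featureCounts, differences were tested with DESeq2, and batch effects were removed with sva in a step whose place is not stated. Versions, the annotation, and the strand and multimapping settings are not given in the sources used here. The deposited values are raw counts per gene. Columns of the joint table and single-library files were identical for 17 of 17 libraries, and 1 column that matched no label (total 0) was not used.

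Tests were run with edgeR 4.0.16 under R 4.3.3 (TMM scaling, filterByExpr with a minimum count of 10, robust quasi-likelihood fit) in 1 model of 6 group means with 11 residual degrees of freedom. Of 22859 genes, 15272 were tested. P-values were adjusted by Benjamini-Hochberg over all genes of a contrast, and a gene was called at an adjusted p under 0.05. Contrasts were IC against control in each subset and averaged over subsets, pairs of subsets in controls and after IC, and differences of IC responses. Errors of log2 fold changes are SE, and levels are CPM per library. Labels do not say whether libraries came from separate animals, so p-values measure only the spread between libraries, which may be technical. A count of 3 was taken as the floor, from 0.419 to 1.24 CPM over the libraries. Intervals of pooled counts and floors cover counting error only. Alternatives were DESeq2 1.42.0, limma 3.58.1 voom with quality (precision) weights, other scalings, filters, thresholds and thinning, surrogate variables (sva 3.50.0), replicate blocks, single libraries left out, summed Tgtp copies, and, chosen after seeing the data, the number of detected genes and the libraries of highest Vsig4 left out. The fit was tested on simulated data.

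All 10 members were named with their value in every library. Of the 5 pathway lists, every gene called after IC in a subset or in the average was named, with Irf1, Irf7, the interferon gamma receptor genes, Ifi47 and Gbp4; 1 further gene of this rule is not reported here. Members and lists were chosen with earlier results of these data known. Promoter windows came from RefSeq (GRCm38.p6), positions from GENCODE M21.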

Additional observations from a re-analysis of the deposited data

Results flagged for a closer look

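The response of Tgtp2 to IC differed between subsets in 2 tests of the difference itself. The log2 fold change in LYVE1+CX3CR1+ macrophages minus that in MHCII+CD11c- macrophages was -4.72 (edgeR adjusted p = 0.0116), with 3 of 3 LYVE1+CX3CR1+ libraries below all controls and 3 of 3 MHCII+CD11c- libraries above theirs. Minus that in MHCII+CD11c+ macrophages it was -4.79 (adjusted p = 0.00738), with 2 of 2 MHCII+CD11c+ libraries above all controls. Both rest on the same LYVE1+CX3CR1+ libraries, with 4, 0 and 0 counts after IC, and their causes were not tested. No group had more than 3 libraries, so single libraries were not tested as outliers.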

How the results depend on the processing

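Counts of members called are given here by contrast. In LYVE1+CX3CR1+ macrophages after IC, 1 member was called, and 0 with precision weights, the number of detected genes as a covariate, or the compared groups alone. No alternative called a member after IC in MHCII+CD11c- or MHCII+CD11c+ macrophages. Averaged over subsets 0 were called, but 1 with DESeq2, precision weights, no filter, a minimum count of 30, thinning to the smallest total, 5 surrogate variables or an adjusted p under 0.1, and 0 to 1 when single libraries were left out. Irgm1 was that member, except without IC library 1 of LYVE1+CX3CR1+ macrophages, where it was Tgtp2 (adjusted p = 0.0171). The response of LYVE1+CX3CR1+ minus MHCII+CD11c- macrophages had 1 call, and 0 with precision weights, summed Tgtp copies, detected genes or a threshold of 0.01 (0 to 1 without single libraries). That of LYVE1+CX3CR1+ minus MHCII+CD11c+ had 1, and 0 with precision weights, summed copies, detected genes or the compared groups alone. Between LYVE1+CX3CR1+ and MHCII+CD11c- controls 3 were called, 5 with DESeq2, 6 with precision weights or the compared groups alone, and 1 to 4 without single libraries. After IC 4 were called, 8 with surrogate variables, 7 at 0.1, and 4 to 6 without single libraries. Between LYVE1+CX3CR1+ and MHCII+CD11c+ macrophages 3 were called in controls and 1 at 0.01, and 3 after IC but 1 with detected genes or at 0.01. Without single libraries both ran from 1 to 4. Between MHCII+CD11c+ and MHCII+CD11c- controls 3 were called, 5 with DESeq2 or precision weights, 1 with the compared groups alone or at 0.01, and 1 to 4 without single libraries. After IC 2 were called, 6 with precision weights, 4 with surrogate variables, 1 at 0.01, and 0 to 2 without single libraries. Where fewer libraries, groups or calls remain by construction, the count can fall for that reason, and the cause of the other changes was not tested.

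Replicate numbers were also fitted as a block. Deviations of libraries with the same number correlated between -0.153 and 0.286, not all over 0.1. Between subsets within a treatment they ran from 0.00129 to 0.286, and between control and IC within a subset from -0.153 to 0.0817. These values cannot decide whether the numbers pair the libraries, because the labels do not name the animals. In 24 of 36 comparisons over pairs of groups with 3 libraries each, a library correlated best with its own number, a hint from the data and not the design. With the replicate block 1 member was called between MHCII+CD11c+ and MHCII+CD11c- controls in place of 3, and with a block nested in treatment 1 between LYVE1+CX3CR1+ and MHCII+CD11c+ macrophages after IC in place of 3. At the depth of these libraries Tgtp1, with at most 21 counts, could show only large changes.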
